A study of Mus musculus with 12 samples.

Results

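The genes described here are 4 members of the C/EBP family (Cebpa, Cebpb, Cebpd and Cebpg), the nuclear receptor gene Pparg and 3 genes for the handling of fatty acids (Fabp4, Lpl and Cd36). They were chosen by name, with earlier results of these data known. Every array feature (probe set) that lists 1 of them alone was read. These were 18 of 45101 probe sets and 8 of 18193 genes tested. Cebpa and Pparg had 1 probe set, Cebpb, Cebpd and Lpl 2, Cebpg and Cd36 3 and Fabp4 4, and the one with the highest mean was tested for each gene. RNA was measured on 12 Affymetrix arrays, as log2 expression values, in embryonic fibroblasts (MEFs) of C57BL/6 mice. Cells called WT carried both Stat5 genes, cells called KO were Stat5-null, and cells called S5 were Stat5-null cells infected with a retrovirus whose vector contained STAT5A. Each was left without stimulation or given growth hormone (GH) for 120 minutes, with 2 arrays in each of the 6 groups. The design text names the 2 arrays of a group biological duplicates. No group received a vehicle, so the effect of GH and that of the handling when it was added cannot be told apart. No group received an empty vector, so the effect of the infection itself and that of STAT5A cannot be told apart. Nor can genotype and cell preparation, because each genotype stands for its own cells. The sources used here do not say whether S5 cells were 1 clone or a pool.

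C/EBP proteins are basic leucine zipper transcription factors that bind DNA as dimers. In fibroblasts and preadipocytes given an adipogenic mix, C/EBP beta and C/EBP delta are induced early, and they are known to raise Pparg and Cebpa, whose products then maintain each other and switch on the lipid genes of fat cells. C/EBP gamma lacks a strong activation domain and can hold back the other members or pair with ATF4. C/EBP beta and delta are also known from the acute-phase response, and C/EBP alpha, C/EBP beta and PPAR gamma work in macrophages as well as in fat cells. Growth hormone signals through JAK2 to STAT5A and STAT5B, factors that bind the GAS motif.

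The cells were not fat cells by their markers. The adipocyte hormone genes Adipoq, Lep and Retn and the lipid droplet gene Cidec, 4 of the 6 adipocyte markers listed, had highest values of 2.41, 2.10, 1.87 and 2.29 over all arrays. Values below 4 form a low mode on these arrays that holds 54.3% of probe sets, and a level there is not told apart from background. The fatty acid genes and factors described here were therefore read in cells without that programme.

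Promoter sequences (250 bases before to 50 bases after an annotated start) were matched by symbol in a RefSeq table of build GRCm38.p6, which held 7 promoters of 5 of the 8 genes, namely Cebpa, Cebpb, Cebpg, Pparg and Cd36. Both strands were searched for the GAS motif TTCNNNGAA, a C/EBP motif TTGCNNAA, a CRE-like motif TGACGC and a TATA box TATAAA. Of 32851 promoters of the same length, 8.3% held the GAS motif, 10.8% the C/EBP motif, 7.4% the CRE-like motif and 13.6% the TATA box. No match of one motif overlapped a match of another in these 7. The promoter of Cebpb (chr2:167688665-167688964, plus strand), which rose with GH in WT cells, is shown with its 3 CRE-like matches at -181, -53 and -7 and a TATA match at 21, counted from the annotated start as 0. Those of Cebpa (chr7:35119043-35119342, plus strand), with a TATA match at -30, and Cebpg (chr7:35056517-35056816, minus strand), with no match, are shown because these genes lie side by side on chromosome 7, with 1 predicted gene between them, and were both lower in KO than in WT cells. Of 3 Pparg promoters, the one at chr6:115421816-115422115 (plus strand) is shown because it alone held C/EBP matches, at -215 and -16. Capitals mark the matches, and each sequence runs 5′ to 3′ on the strand of its gene.
Cebpb: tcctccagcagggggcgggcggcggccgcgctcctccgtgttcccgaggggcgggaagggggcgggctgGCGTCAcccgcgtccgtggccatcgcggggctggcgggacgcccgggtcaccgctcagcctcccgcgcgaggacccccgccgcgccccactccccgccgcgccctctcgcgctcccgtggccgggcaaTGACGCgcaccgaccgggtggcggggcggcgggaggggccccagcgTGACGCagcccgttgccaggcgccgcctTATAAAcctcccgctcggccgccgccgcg
Cebpa: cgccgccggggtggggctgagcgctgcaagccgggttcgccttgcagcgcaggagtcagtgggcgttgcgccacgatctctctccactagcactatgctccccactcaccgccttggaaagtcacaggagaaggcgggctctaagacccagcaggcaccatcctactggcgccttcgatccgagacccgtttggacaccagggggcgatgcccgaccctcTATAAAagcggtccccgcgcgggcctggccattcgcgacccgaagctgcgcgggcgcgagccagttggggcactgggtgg
Cebpg: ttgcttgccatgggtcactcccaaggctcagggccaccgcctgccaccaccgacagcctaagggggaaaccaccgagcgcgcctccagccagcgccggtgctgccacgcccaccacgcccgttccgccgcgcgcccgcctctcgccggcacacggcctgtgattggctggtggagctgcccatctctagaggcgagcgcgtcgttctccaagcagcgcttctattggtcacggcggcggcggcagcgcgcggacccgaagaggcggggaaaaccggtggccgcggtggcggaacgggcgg
Pparg: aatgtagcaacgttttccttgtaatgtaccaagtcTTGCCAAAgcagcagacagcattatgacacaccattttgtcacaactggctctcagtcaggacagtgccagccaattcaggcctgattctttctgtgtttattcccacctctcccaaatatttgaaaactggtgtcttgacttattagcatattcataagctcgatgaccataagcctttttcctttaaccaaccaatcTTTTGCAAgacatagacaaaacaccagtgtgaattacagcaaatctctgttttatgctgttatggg
No GAS match was found in the 7 promoters, which says only that these letters are not in these windows. A match is a description of the sequence and was not tested for binding.

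The arrays matched their labels on the deleted genes. One Stat5a probe set had values of 11.51 and 11.45 in untreated WT cells and 12.11 and 12.39 with GH, against 2.34 to 2.47 on every KO and S5 array. A second Stat5a probe set stood at 9.86 and 9.90 in untreated S5 cells and 9.04 and 9.14 in S5 cells with GH, and between 2.19 and 2.38 on every other array. The transcript of the vector and that of WT cells were thus read by different probe sets, and their levels were not compared. Stat5b ranged from 8.98 to 9.39 on WT arrays and from 1.93 to 2.01 on KO and S5 arrays. Duplicates correlated with r between 0.990 and 0.996 across 10947 genes, which are not independent replicates, and array medians lay between 2.86 and 3.02. The GH target genes Cish and Socs2, feedback inhibitors of the receptor, rose with GH 8.8-fold and 18.7-fold in WT cells (adjusted p = 6.46e-05 and 2.7e-06) and at least 38.1-fold and 22.8-fold in S5 cells (4.29e-06 each). In KO cells they differed by -0.37 and 0.67 (adjusted p = 0.514 and 0.104). With 2 arrays in a group, the number of arrays limits every comparison.

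Cebpb and Cebpd rose with growth hormone in WT cells. Cebpd, which codes for the early and inflammation-responsive C/EBP delta, had log2 values of 11.13 and 10.98 in untreated WT cells and 12.62 and 12.56 in treated ones. Both treated arrays lay above both untreated arrays and above all other arrays of the series. The change was 2.9-fold (log2 difference 1.54, SE 0.10, limma adjusted p = 0.000214). Adjusted p-values here are from limma's moderated two-sided test with Benjamini-Hochberg adjustment over the 18193 genes, called at 0.05. They set a difference against the spread between duplicates, pooled over all 6 groups. For a further probe set of a gene the adjustment ran over all 34945 probe sets with 1 gene. A second Cebpd probe set, at 10.67 and 10.55 without and 11.90 and 11.90 with GH, rose by 1.29 (adjusted p = 0.000369).

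Cebpb, which codes for C/EBP beta, had values of 8.73 and 8.33 in untreated and 9.61 and 9.49 in treated WT cells, again with no overlap. It rose 2.03-fold (log2 difference 1.02, SE 0.19, adjusted p = 0.0269). With only the untreated and treated WT arrays in the model this call was lost (adjusted p = 0.105), as it was without replicate 2 of the untreated WT arrays (0.117), without replicate 1 or 2 of the treated WT arrays (0.106 and 0.0984), and without either untreated S5 array (0.0544 each). Its adjusted p ranged from 0.0142 to 0.117 over all alternatives and that of Cebpd from 3.48e-05 to 0.0309. The other Cebpb probe set lay between 1.58 and 1.66 on every array and gave no reading.

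The other 6 genes did not pass the test in WT cells. Pparg, the regulator of fat cell formation that C/EBP factors induce, had the values 6.60 and 6.39 without GH and 5.61 and 5.53 with it. Its arrays did not overlap, and the difference of -0.93 had a 95% interval from -1.58 to -0.27 and an adjusted p of 0.116. Cebpa, the late C/EBP factor of fat cell formation, differed by -0.02 (interval -0.72 to 0.68) and Cebpg by -0.15 (-0.37 to 0.08). Fabp4 differed by 0.37 (-0.05 to 0.80), Lpl by 0.06 (-0.90 to 1.02) and Cd36 by 0.35 (-0.90 to 1.60). Over all genes tested, 6% changed in this comparison, 3.06% higher and 2.94% lower, beside 2 of these 8, both higher, and 1 of 8 without either untreated S5 or either treated WT array. The median log2 difference was 0.20 over the 8 genes and -0.04 over all genes.

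**Figure D1:**
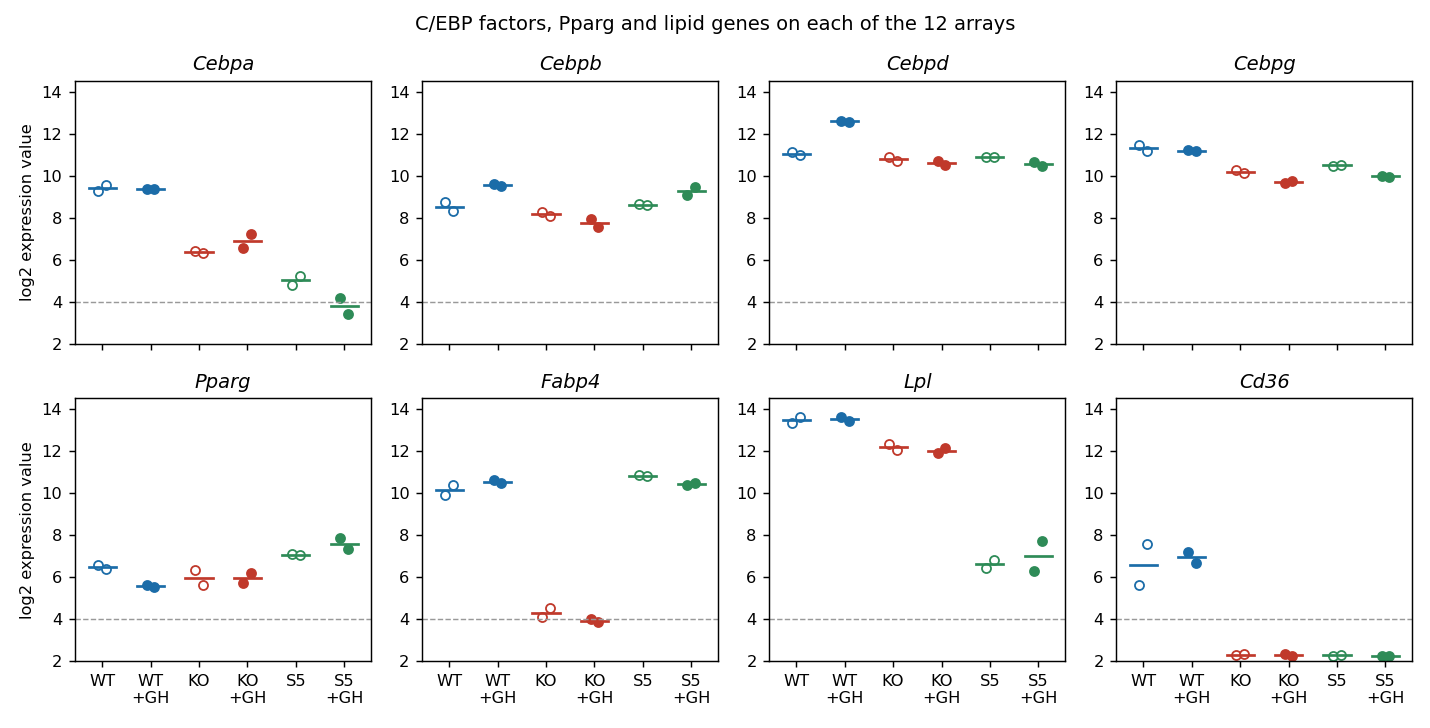
Log2 expression value of each gene on the 12 arrays (y axis) by group (x axis). Open points are untreated arrays, filled points arrays with growth hormone, short bars the mean of 2 arrays and the dashed line the low-mode bound of 4. Cebpd stood above 12.5 in WT cells with growth hormone and below 11.2 elsewhere, Fabp4 was near 4 in KO cells, and Cd36 was in the low mode in KO and S5 cells.

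In KO cells none of the 8 genes passed the test with GH, where 0.308% of all genes did (0.225% higher, 0.0824% lower), and 1 of the 8, Cebpg, had an unadjusted p below 0.05. Cebpd had values of 10.87 and 10.69 without and 10.70 and 10.52 with GH, a difference of -0.17 (interval -0.40 to 0.06). The 2 groups overlapped. Cebpb stood at 8.26 and 8.07 without and 7.96 and 7.56 with GH, a difference of -0.40 (interval -0.86 to 0.06). Cebpg, the inhibitory partner, stood at 10.26 and 10.11 without and 9.66 and 9.74 with GH, a difference of -0.49 (interval -0.71 to -0.27) with an adjusted p of 0.112. The differences of Cebpa, Fabp4, Lpl, Pparg and Cd36 lay between -0.38 and 0.52. The median was -0.18 over the 8 genes and -0.02 over all.

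In S5 cells Cebpg fell with GH, and Cebpd did not rise. Cebpg had values of 10.45 and 10.53 in untreated and 10.00 and 9.93 in treated S5 cells, a 1.44-fold fall (log2 difference -0.52, SE 0.10, adjusted p = 0.0198). The groups did not overlap. With only the S5 arrays in the model the call was lost (adjusted p = 0.0507). It was also lost when an untreated S5 array was dropped (0.0718 for replicate 1, 0.117 for replicate 2) or a treated one (0.0761 and 0.0799). Over its alternatives the adjusted p ranged from 0.00415 to 0.117. The other 2 Cebpg probe sets differed by -0.37 (adjusted p = 0.291) and -0.50 (adjusted p = 0.11).

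Cebpd had values of 10.91 and 10.87 in S5 cells without and 10.65 and 10.45 with GH, a difference of -0.34 (interval -0.57 to -0.10, adjusted p = 0.0942). The treated arrays were the lower ones, the opposite order to that in WT cells. Cebpb stood at 8.65 and 8.61 without and 9.08 and 9.48 with GH, a difference of 0.65 (interval 0.19 to 1.10, adjusted p = 0.1). Here the treated arrays were the higher ones, as in WT cells. Cebpa stood at 4.82 and 5.23 without and 4.19 and 3.44 with GH, 1 of these arrays in the low mode, a difference of -1.21 (interval -1.91 to -0.51, adjusted p = 0.0557).

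These last 3 genes lay near the threshold. Cebpa passed with quantile normalization (adjusted p = 0.0276), with centred arrays (0.033), array weights (0.0175), a filter on a mean of at least 4 (0.0273) and the mean of probe sets (0.0484), and without either treated KO array (0.0419) or replicate 1 of the treated S5 arrays (0.045). Its range over all alternatives was 0.0175 to 0.269. Cebpd passed with centred arrays (0.0428) and array weights (0.0215), in a range of 0.0171 to 0.329, and Cebpb with array weights (0.0257), in a range of 0.0257 to 0.348. Among all genes 7.88% changed with GH in S5 cells, 3.63% higher and 4.25% lower, beside 0 higher and 1 lower of these 8. The count was 0 without either untreated S5 array or replicate 2 of the treated S5 arrays, and 2 lower without either treated KO array. The share of higher calls among all calls in S5 cells was 46.1%, and 32.2% after each array was centred on its median. The medians were -0.18 over the 8 genes and -0.02 over all.

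The response of Cebpd differed between genotypes, and that of Cebpb was not shown to. The GH effect on Cebpd in WT minus that in KO cells was 1.71 on the log2 scale (SE 0.14, adjusted p = 0.00165). The effect in S5 minus that in WT cells was -1.88 (SE 0.14, adjusted p = 0.000671), and that in S5 minus that in KO cells -0.17 (interval -0.50 to 0.16). For Cebpb the effect in WT minus that in KO cells was 1.42 (interval 0.78 to 2.07, adjusted p = 0.0769). That in S5 minus that in KO cells was 1.05 (interval 0.40 to 1.69, adjusted p = 0.181), and that in S5 minus that in WT cells was -0.37 (interval -1.02 to 0.27). These comparisons share arrays with the ones above.

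Of all genes, 1.27% differed in response between WT and KO cells (0.846% higher in WT, 0.423% lower), against 1 of the 8 genes, Cebpd. Between S5 and KO cells 1.13% did (0.643% higher in S5, 0.484% lower), against 0 of 8, with 2 of 8 at an unadjusted p below 0.05. Between S5 and WT cells 2.92% did (1.41% higher in S5, 1.52% lower), against 1 of 8, again Cebpd. The median of these differences over the 8 genes was 0.36, -0.01 and -0.37 in that order, and -0.02, 0 and 0.02 over all genes. Pparg, at 7.11 and 7.05 in untreated and 7.86 and 7.33 in treated S5 cells, had a difference of 1.44 between its S5 and WT responses (interval 0.51 to 2.36) that did not pass (adjusted p = 0.134).

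**Figure D2:**
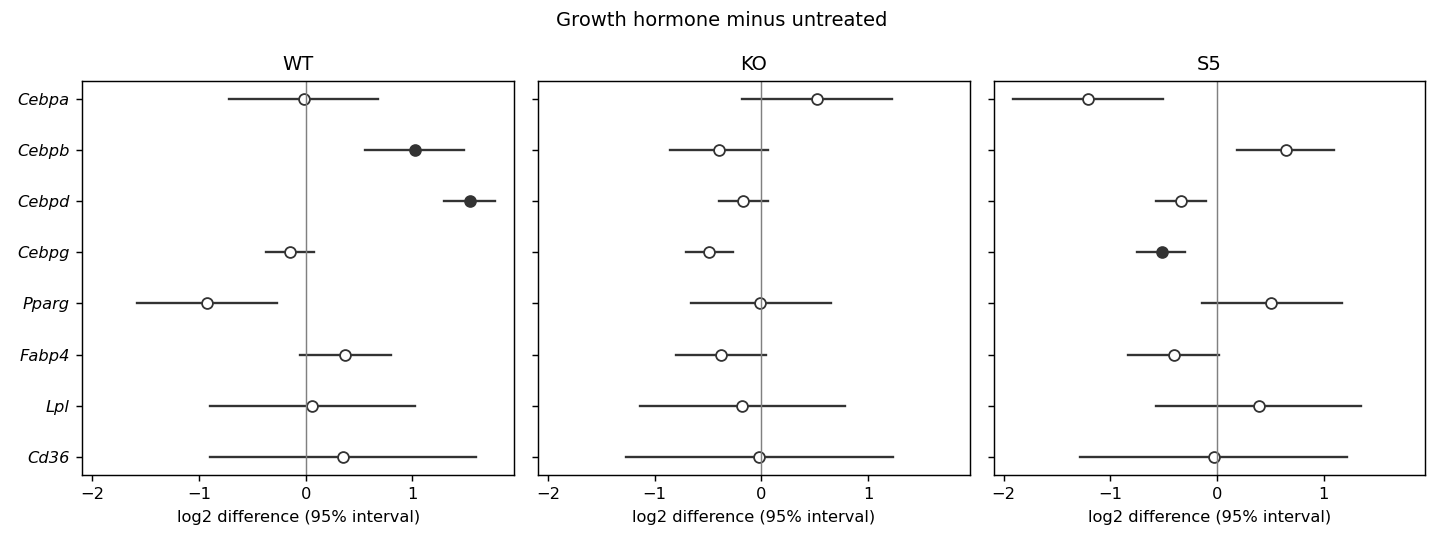
Log2 difference of growth hormone minus untreated arrays (x axis) for each of the 8 genes (y axis) in WT, KO and S5 cells, with 95% intervals from limma. Filled points passed the adjusted threshold, which were Cebpb and Cebpd in WT cells and Cebpg in S5 cells, while none passed in KO cells.

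Cebpa and Cebpg were lower in KO than in WT cells, and Cebpa and 2 of the 3 Cebpg probe sets were also lower in S5 than in WT cells. Cebpa had values of 9.27 and 9.55 in WT and 6.40 and 6.32 in KO cells, an 8.25-fold difference (log2 -3.04, SE 0.30, adjusted p = 0.000336). In S5 cells it stood at 4.82 and 5.23, lower again than in KO cells by 2.53-fold (log2 -1.34, SE 0.30, adjusted p = 0.0135) and 20.9-fold lower than in WT cells (adjusted p = 3.47e-05). The call against KO cells was lost without either untreated KO array (adjusted p = 0.0646 and 0.0533) or without replicate 1 of the untreated S5 arrays (0.0869). It ranged from 0.0049 to 0.0869 over all alternatives. From the highest group to the lowest, Cebpa ran from WT through treated WT, treated KO, KO and S5 to treated S5 cells, and only the 2 WT groups overlapped as neighbours.

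Cebpg had values of 11.47 and 11.18 in WT and 10.26 and 10.11 in KO cells, a 2.2-fold difference (log2 -1.14, SE 0.10, adjusted p = 0.000152). It was 1.78-fold lower in S5 than in WT cells (adjusted p = 0.000432). A second Cebpg probe set was lower there too (-0.69, adjusted p = 0.0165), but the third had the opposite sign and did not pass (0.12, adjusted p = 0.614), nor did it with GH (-0.22, adjusted p = 0.377). The difference between S5 and KO cells, 0.30 on the log2 scale (interval 0.08 to 0.53), did not pass (adjusted p = 0.0529). It passed without either untreated WT array (adjusted p = 0.0144 each), and with the mean of the Cebpg probe sets it was 0.53 (0.00757), in a range of 0.00757 to 0.246 over the alternatives. The other 2 probe sets differed between S5 and KO cells by 0.71 (adjusted p = 0.0186) and 0.59 (adjusted p = 0.0289). Between KO and WT cells they differed by -1.41 (adjusted p = 0.00103) and -0.47 (adjusted p = 0.0687), so the 3 probe sets gave unequal sizes in 1 direction between KO and WT cells. On the tested probe set Cebpg ran in order of level from WT through treated WT, S5, KO and treated S5 to treated KO cells, and only the WT groups overlapped.

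Cebpb and Cebpd did not pass between untreated genotypes on their tested probe sets. Cebpb differed by -0.36 between KO and WT cells (interval -0.82 to 0.09), by 0.47 between S5 and KO cells (0.01 to 0.92) and by 0.10 between S5 and WT cells (-0.36 to 0.56). With only the untreated S5 and KO arrays in the model their difference in Cebpb passed (adjusted p = 0.0407, range 0.0407 to 0.432). Cebpd differed by -0.27 (-0.51 to -0.04), 0.11 (-0.12 to 0.34) and -0.16 (-0.40 to 0.07) in the same order. The second Cebpd probe set was lower in KO than in WT cells (log2 difference -0.47, adjusted p = 0.00724). It was also lower in S5 than in WT cells (-0.39, adjusted p = 0.0114). With the mean of both probe sets the difference between S5 and WT cells was -0.28 (adjusted p = 0.0446), in a range of 0.0446 to 0.621 over the alternatives, and the KO difference was -0.37 (adjusted p = 0.0174), in a range of 0.00966 to 0.353 over the alternatives.

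With GH, Cebpb and Cebpd differed between KO and WT cells as well. In treated KO against treated WT cells Cebpb was 3.45-fold lower (log2 -1.79, adjusted p = 0.000439), Cebpd 3.94-fold (log2 -1.98, adjusted p = 1.1e-05), Cebpa 5.67-fold (adjusted p = 0.000681) and Cebpg 2.79-fold (adjusted p = 3.62e-05). The second Cebpg probe set differed there by -1.53 (adjusted p = 0.000558), while the third differed by -0.40 and did not pass (adjusted p = 0.11). Cebpg in treated S5 and KO cells differed by 0.27 (adjusted p = 0.0741), which passed without either untreated WT array (0.0206 each, range 0.0206 to 0.274). In treated S5 cells Cebpb was 2.86-fold higher than in treated KO cells (log2 1.51, SE 0.19, adjusted p = 0.000883) and not told apart from treated WT cells (difference -0.27, interval -0.73 to 0.19). Cebpd in treated S5 cells stayed 4.11-fold below treated WT cells (log2 -2.04, SE 0.10, adjusted p = 5.15e-06) and differed from treated KO cells by -0.06 (interval -0.29 to 0.17). On the arrays, Cebpb in treated S5 cells lay just below treated WT and above treated KO cells, and Cebpd overlapped treated KO cells. In order of level, Cebpb ran from treated WT through treated S5, S5, WT and KO to treated KO cells, with S5 and WT overlapping. Cebpd ran from treated WT through WT, S5, KO and treated KO to treated S5 cells, with overlap between each pair of neighbours from S5 down.

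Pparg was higher in S5 than in KO cells. Its only probe set had values of 6.36 and 5.61 in KO and 7.11 and 7.05 in S5 cells, a 2.14-fold difference (log2 1.09, SE 0.28, adjusted p = 0.0236). KO replicate 2 was the lowest of these arrays, and without it the difference was 0.72 (adjusted p = 0.109). The call was also lost with only these 4 arrays in the model (0.0906) and without replicate 1 (0.105) or 2 (0.085) of the untreated S5 arrays, with a range of 0.00932 to 0.109 over all alternatives. With GH the difference from KO cells was 3.06-fold (log2 1.61, SE 0.28, adjusted p = 0.00386). Treated S5 cells, at 7.86 and 7.33, were 4.06-fold above treated WT cells, at 5.61 and 5.53 (log2 2.02, SE 0.28, adjusted p = 0.00093). Untreated S5 and WT cells differed by 0.58 (interval -0.07 to 1.24, adjusted p = 0.161), which passed with only those arrays in the model (0.0274, range 0.0274 to 0.455). KO and WT cells were not told apart, with differences of -0.51 (interval -1.17 to 0.14) without and 0.41 (-0.25 to 1.06) with GH. In level, treated S5 cells came first and treated WT cells last, and only KO and treated KO cells overlapped as neighbours.

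Fabp4, which codes for the fatty acid carrier of fat cells and macrophages, was low in KO cells and high in WT and S5 cells. Its values were 9.92 and 10.40 in WT cells, 4.11 and 4.53 in KO cells, just above the low mode, and 10.86 and 10.81 in S5 cells. All KO arrays lay far below all WT and S5 arrays. Fabp4 was 57.2-fold lower in KO than in WT cells (log2 -5.84, SE 0.18, adjusted p = 1.48e-06) and 91.6-fold higher in S5 than in KO cells (log2 6.52, SE 0.18, adjusted p = 3.1e-07). S5 cells were 1.6-fold above WT cells (log2 0.68, SE 0.18, adjusted p = 0.0223).

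That last Fabp4 call was lost with only the arrays of both groups in the model (0.0961), without replicate 1 of the untreated WT arrays (difference 0.44, adjusted p = 0.106) and without replicate 1 (0.0983) or 2 (0.0774) of the untreated S5 arrays, and ranged from 0.00666 to 0.106. With GH the values were 10.61 and 10.46 in WT, 4.0 and 3.88 in KO and 10.38 and 10.50 in S5 cells, with folds of 96.4 between WT and KO cells and 90.1 between S5 and KO cells (adjusted p = 5.09e-07 and 3.14e-07). Treated S5 and WT cells differed by -0.10 (interval -0.52 to 0.32), and the treated KO arrays lay at the bound, so their fold is near the most these arrays can show. Untreated S5 cells were the highest group, and the treated WT, treated S5 and untreated WT groups below them overlapped in turn. A second Fabp4 probe set was at least 40-fold lower in KO than in WT cells and at least 69-fold higher in S5 than in KO cells, counted from the bound of 4 (adjusted p = 1.87e-05 and 4.73e-06). Its difference between untreated S5 and WT cells was 0.79 and did not pass (adjusted p = 0.103). The remaining 2 lay between 2.22 and 2.36 on all arrays and gave no reading. With the mean of the 4 probe sets, which includes those 2, the KO minus WT and S5 minus KO differences shrank to -3.02 and 3.37, and both still passed.

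Lpl, the secreted lipase that releases fatty acids from lipoproteins, moved the other way in S5 cells. Its values were 13.33 and 13.63 in WT, 12.34 and 12.06 in KO and 6.43 and 6.82 in S5 cells. S5 cells were 47.7-fold below KO cells (log2 -5.58, SE 0.41, adjusted p = 5.08e-05) and 116-fold below WT cells (log2 -6.86, SE 0.41, adjusted p = 1.74e-05). With GH these folds were 32.1 and 92.5 (adjusted p = 8.39e-05 and 1.83e-05), with treated S5 replicates at 6.30 and 7.71. A second Lpl probe set was at least 5.2-fold lower in S5 than in KO cells, where it was in the low mode on both untreated S5 arrays (adjusted p = 0.000877).

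Between KO and WT cells Lpl differed by -1.28 (interval -2.24 to -0.32), and the groups did not overlap, but the adjusted p was 0.0568. It passed with the mean of the probe sets (difference -1.69, adjusted p = 0.00827), a trended prior (0.0321), a filter on a mean of at least 4 (0.0251), a model of the untreated WT and KO arrays alone (0.025) and without either treated S5 array (0.0035 each), in a range of 0.0035 to 0.224. With GH the KO cells were 2.88-fold below WT cells (log2 -1.53, adjusted p = 0.0267). This call was lost with array weights (0.109), without replicate 1 (0.118) or 2 (0.0801) of the treated WT arrays and without replicate 1 (0.106) or 2 (0.0774) of the treated KO arrays, in a range of 0.00141 to 0.118. The second Lpl probe set was also lower in KO than in WT cells and passed, by -2.09 without GH (adjusted p = 0.0171) and -2.49 with it (adjusted p = 0.00725). On the tested probe set the treated and untreated groups of each genotype overlapped, in the order WT, KO and S5 cells.

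Cd36, a fatty acid and lipoprotein scavenger receptor, was read in WT cells alone. Its values were 5.63 and 7.57 in untreated and 7.22 and 6.67 in treated WT cells, and between 2.26 and 2.34 on every KO and S5 array. KO and S5 cells were each at least 6.05-fold lower than WT cells (adjusted p = 0.00102 and 0.00063), and at least 7.7-fold lower with GH (adjusted p = 0.00055 and 0.000356). The bound without GH rests on unequal arrays. Counted from the bound of 4, WT replicate 1 alone stood 3.09-fold and replicate 2 alone 11.8-fold above it. The fitted difference between KO and WT cells was -3.31 with replicate 1 alone and -5.25 with replicate 2 alone. With 1 untreated WT array left, the spread came from the other groups, those of KO and S5 cells in the low mode. No p-value is therefore given for these fits. The other 2 probe sets gave at least 4-fold (adjusted p = 0.0345) and at least 3.73-fold (adjusted p = 0.0183) between KO and WT cells. No fold is given between KO and S5 cells, both in the low mode. The untreated WT duplicates disagreed, also on the other 2 probe sets, at 4.33 and 7.67 and at 4.37 and 7.42 for replicates 1 and 2. Without replicate 2 the GH difference in WT cells was 1.31, a call that rests on the same spread of other groups. Over the alternatives this difference ran from -0.62 to 1.31.

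**Figure D3:**
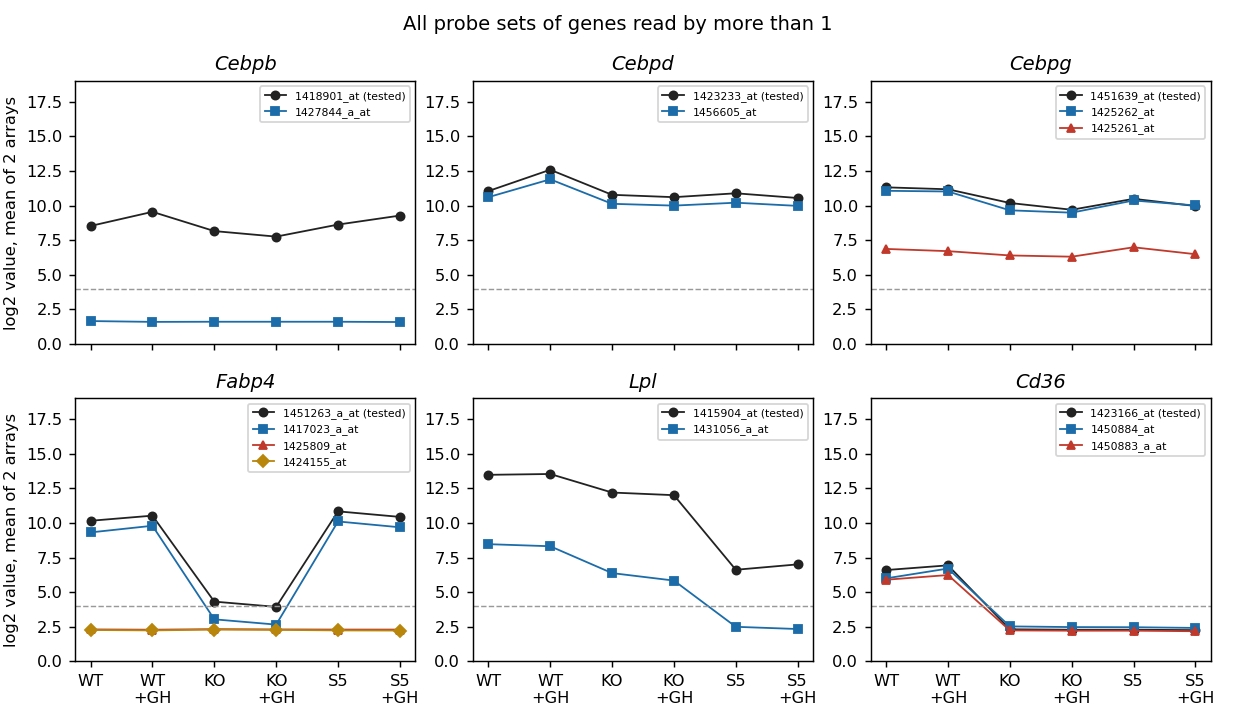
Mean log2 value of 2 arrays (y axis) in the 6 groups (x axis) for every probe set of the 6 genes read by more than 1, with lines joining the groups of a probe set for legibility and the dashed line at the low-mode bound of 4. The probe sets of Cebpd, Lpl and Cd36 moved alike, while 1 of Cebpb and 2 of Fabp4 stayed in the low mode in every group.

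Counted over the untreated genotypes, 4 of the 8 genes were lower and 0 higher in KO than in WT cells, where 27.1% of all genes differed (13.9% higher, 13.3% lower). Between S5 and KO cells 2 were higher and 2 lower, beside 27.4% of all genes (15.5% higher, 11.9% lower). This count was 1 and 1 without replicate 2 of the untreated KO arrays or without replicate 1 of the untreated S5 arrays. Between S5 and WT cells 1 was higher and 4 were lower, beside 34.7% (19.2% higher, 15.4% lower). The medians over the 8 genes were -1.21, 0.21 and -0.50, against 0, -0.02 and -0.03 over all genes. Because the 8 were chosen with earlier results of these data known, such counts, also those with GH, are descriptions only.

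With GH, 7 of the 8 were lower and 0 higher in KO than in WT cells, Pparg being the exception, beside 30.1% of all genes (16.3% higher, 13.8% lower). Between treated S5 and KO cells 3 were higher and 2 lower, beside 28.9% (15% higher, 13.9% lower). Of all calls there 51.8% were higher, and 37.2% after centring each array on its median. Between treated S5 and WT cells 1 was higher and 5 were lower, beside 36.9% (20.2% higher, 16.7% lower). The medians over the 8 genes were -1.88, 0.12 and -1.62, and over all genes 0.01, -0.02 and -0.01. The treated comparisons hold the GH response of Cebpb and Cebpd in WT cells as well as the difference between the cells.

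**Figure D4:**
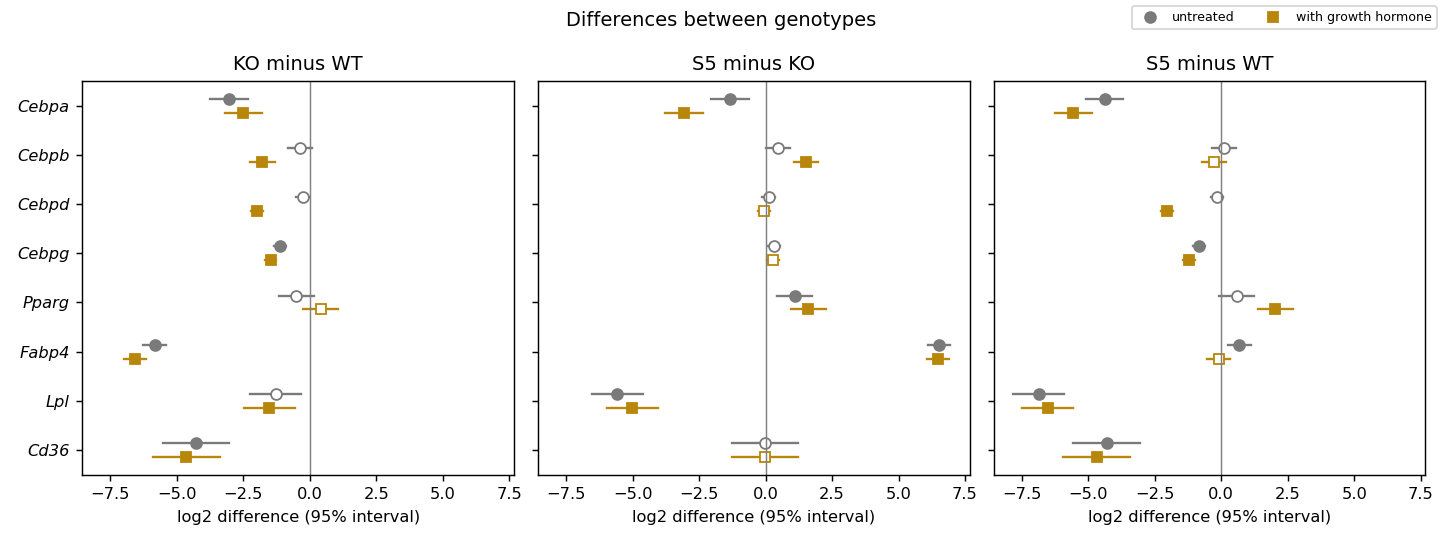
Log2 difference between genotypes (x axis) for each of the 8 genes (y axis), with 95% intervals from limma, for untreated arrays (circles) and arrays with growth hormone (squares). Filled symbols passed the adjusted threshold. Untreated Fabp4 differed by -5.84 between KO and WT and by 6.52 between S5 and KO cells, Lpl by -5.58 between S5 and KO cells, and differences of Cd36 involve groups in the low mode.

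The WT arrays carried a strong signal of macrophages, in which Lpl, Cd36, Fabp4, Cebpa, Cebpb and Pparg are known to be expressed. Averaged over 17 markers of macrophages and blood cells, the log2 value was 8.33 and 9.91 on untreated and 9.88 and 9.94 on treated WT arrays. KO arrays averaged 3.80 to 4.10, and S5 arrays 2.96 to 3.20. Of the 17 markers 1 to 4 were in the low mode on a WT array, 10 or 11 on a KO array and 14 on every S5 array. The blood cell gene Ptprc and the macrophage genes Adgre1, Tyrobp and Mrc1 were in the low mode on all KO and S5 arrays, and Itgam was so on all 12 arrays. Spi1 was above it only on replicate 1 of the treated WT arrays. On replicate 1 of the untreated WT arrays Fcgr1 and C1qa were in the low mode as well.

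In bulk RNA fewer cells of a type and less RNA per cell cannot be told apart. Cd36 was lowest of the WT arrays on the one with the lowest marker mean, and in the low mode wherever Ptprc and Adgre1 were. Lpl stood at 11.91 to 12.34 on KO arrays, and Fabp4 at 10.38 to 10.86 on S5 arrays, where Ptprc and Adgre1 were in the low mode. Other markers were above it there. These were Cd68, Csf1r, Lyz2, Cd14, Cd53 and C1qb on every KO array, and Cd68, Csf1r and Cd14 on every S5 array. Cebpa fell along the same order of genotypes as the markers. The part of macrophages in the differences of Cd36, Fabp4, Lpl, Pparg and the C/EBP genes between WT and the other cells was not tested.

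The marker mean also moved between the untreated WT duplicates. Cd14, a co-receptor for bacterial lipopolysaccharide, rose with GH in WT cells (log2 difference 2.69, adjusted p = 0.0302). It was the 1 of 17 markers to pass there, beside 6% of all genes. That count was 0 without either untreated S5 array, 8 higher without replicate 2 and 2 lower without replicate 1 of the untreated WT arrays. Without replicate 1 the GH differences were 1.22 for Cebpb (adjusted p = 0.0339) and 1.61 for Cebpd (0.00088). Without replicate 2 they were 0.82 (0.117, not passing) and 1.46 (0.00127). Each of these sets 1 untreated array against 2 treated ones and assumes that it varies like the other groups. The part of the marker signal in the response of Cebpb and Cebpd was not tested. One sign of RNA quality moved with genotype and another overlapped. The 3′ control probe set of Gapdh exceeded the 5′ one, in log2 units, by 1.44 to 1.62 on S5 arrays, 0.89 to 1.22 on WT arrays and 0.94 to 1.11 on KO arrays. For Actb this was 3.04 to 3.15 on S5 arrays, 2.55 to 3.13 on WT arrays and 2.71 to 3.07 on KO arrays. Fibroblast markers averaged 13.17 to 13.30 on WT arrays, 12.76 to 12.86 in KO cells and 11.16 to 11.63 in S5 cells. Their members split between S5 and KO cells, with 4 of 11 lower, 1 higher and a median of -0.03, beside 11.9% of all genes lower and 15.5% higher. The higher one was Lum (0.67, adjusted p = 0.0462), with means of 3.22 in KO and 3.89 in S5 cells, both below the bound of 4. Its call was lost without any one array other than replicate 2 of the untreated KO and replicate 1 of the untreated S5 arrays. Thy1, a surface glycoprotein gene, fell the most in S5 cells (-9.93, adjusted p = 1.14e-05), followed by Dcn (-2.94, 9.52e-05) and Pdgfra (-1.53, 4.71e-05), whereas Col1a1 differed by 0.09 and Vim by -0.02. The part of either in the S5 differences was not tested.

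**Figure D5:**
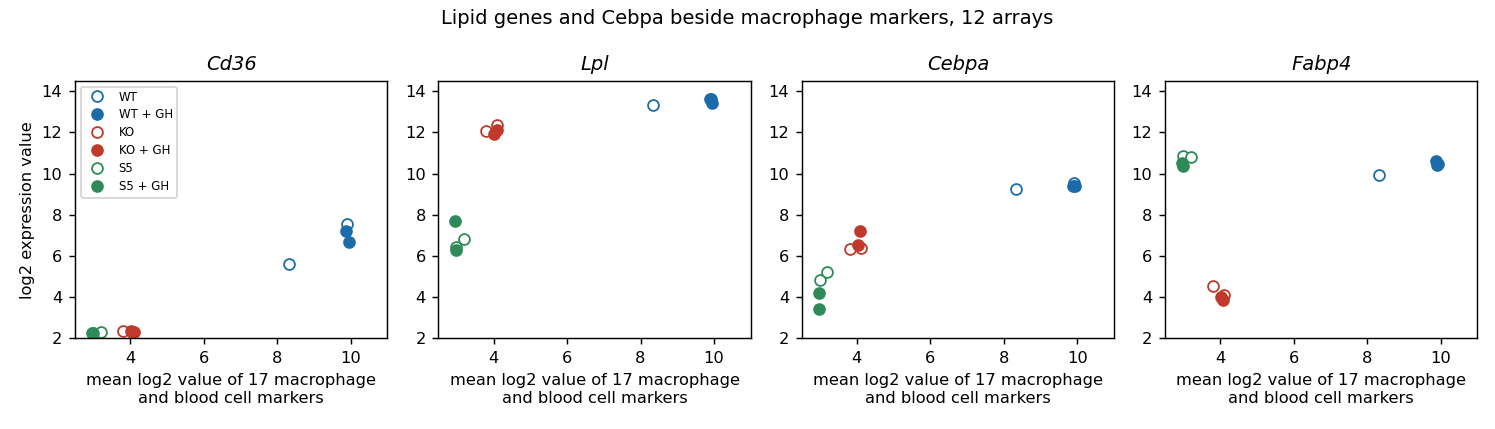
Log2 value of Cd36, Lpl, Cebpa and Fabp4 (y axes) against the marker mean, the average log2 value of the 17 markers (x axis), each point 1 array, open without and filled with growth hormone. Cd36 was above the low mode only on WT arrays, whereas Fabp4 stood at 10.38 or more on S5 arrays with marker means of 2.96 to 3.20.

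Relatives of the C/EBP factors differed between KO and WT cells. Of 7 listed relatives and dimer partners 6 were measured, and 0 passed with GH in WT, KO or S5 cells, with 1, 1 and 3 at an unadjusted p below 0.05 in limma. Over all genes 6%, 0.308% and 7.88% passed, so 0 of 6 is near the background. Without either treated KO array the counts were 1 higher in WT cells and 2 higher in S5 cells. Between KO and WT cells 4 were lower, namely Atf5 (-1.01, adjusted p = 0.000372), Nfil3 (-1.70, 0.00408), Atf4 (-0.37, 0.0123) and Atf3 (-1.86, 0.0164), all leucine zipper genes. The median over the 6 was -0.69, against 0 over all genes, of which 27.1% passed. The counts were 2 lower without replicate 2 of the untreated KO arrays, and 1 higher and 2 lower without replicate 1 of the untreated WT arrays. Atf4, the stress factor that pairs with C/EBP gamma, and Atf5 were higher in S5 than in KO cells, by 0.54 (adjusted p = 0.00185) and 0.76 (adjusted p = 0.00115).

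Of 16 measured activators of fat cell formation, 1 rose and 1 fell with GH in WT cells, where 3.06% of all genes rose and 2.94% fell. Lpin1, a phosphatase of lipid synthesis that coactivates PPAR gamma, rose by 0.68 (adjusted p = 0.0105), and Klf4 fell by 0.68 on the log2 scale (adjusted p = 0.00478). Without replicate 2 of the treated WT arrays the counts were 0 and 1, and without replicate 1 of the untreated ones 0 and 2. The median over the list was -0.08 in WT and -0.03 in KO and S5 cells. Klf5, which works with C/EBP beta and delta to induce Pparg, stood at 3.60 and 3.62 in KO cells without and 5.15 and 4.82 with GH, and at 7.67 and 7.59 in S5 cells without and 9.21 and 9.37 with it. It rose at least 1.99-fold in KO cells (adjusted p = 0.02), a call lost without either untreated KO or either untreated S5 array, and by 1.66 in S5 cells (adjusted p = 0.00115).

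The Klf5 response in S5 cells exceeded that in WT cells, where it stood at 7.37 and 7.47 without and 7.46 and 7.83 with GH, by 1.43 (adjusted p = 0.0123), a call lost without replicate 2 of the untreated S5 arrays. Klf5 was also at least 10.7-fold lower in KO than in WT cells (adjusted p = 3.57e-06) and at least 12.4-fold higher in S5 than in KO cells (adjusted p = 1.13e-06). In S5 cells Ebf1, a factor of early preadipocytes, was the other activator to rise with GH, by 0.65 (adjusted p = 0.0146). There 3.63% of all genes rose and 4.25% fell. The S5 count of 2 was 1 when replicate 2 of either S5 group was dropped, and 1 gene was also lower without either treated KO array or replicate 1 of the untreated S5 arrays. Between genotypes 4 of the 16 were higher and 4 lower in KO than in WT cells, where 27.1% of all genes differed, and 4 higher and 4 lower in S5 than in KO cells, where 27.4% did. The last counts were 2 and 5 without replicate 1 of the untreated KO arrays.

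Of 14 measured inhibitors of fat cell formation, 5 fell and 0 rose with GH in WT cells, 0 passed in KO cells (4 at an unadjusted p below 0.05 in limma, and 1 lower without replicate 2 of the treated KO arrays) and 4 fell in S5 cells. Among all genes 2.94% fell in WT cells, 0.308% passed in KO cells and 4.25% fell in S5 cells. In WT cells Hes1, a Notch target, fell by 1.66 (adjusted p = 0.0115), Zfp521, which opposes the adipogenic Zfp423, by 0.49 (0.026), Nr2f2 by 0.61 (0.0371) and Klf3 by 0.68 (0.0422). This count was 0 to 2 when any one of the WT or S5 arrays was left out. In S5 cells Sox9, a cartilage factor, fell by 2.55 (adjusted p = 0.00104), Zfp521 by 0.95 (0.00198) and Klf2 by 2.22 (0.0379). Gata3 also fell (adjusted p = 0.0179), from a mean of 4.15 near the bound to 2.82 in the low mode, at least 1.11-fold. The count there was 2 without replicate 2 of the untreated S5 arrays, and 2 lower with 1 higher without replicate 2 of the treated ones. The median over the list was -0.29 in WT, -0.18 in KO and -0.32 in S5 cells, against -0.04, -0.02 and -0.02 over all genes. The S5 response of Sox9 differed from that in WT cells by -2.53 (adjusted p = 0.00651) and from that in KO cells by -2.47 (adjusted p = 0.0147, lost without either untreated S5 array), while no such difference was called for Zfp521.

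Of 30 listed lipid and hormone genes of fat cells 26 were measured, and 14 of them had a group above the low mode. With GH 2 rose in WT cells, where 3.06% of all genes rose. Angptl4, an inhibitor of lipoprotein lipase, rose by 1.96 (3.9-fold, adjusted p = 0.0279) and the monoglyceride lipase gene Mgll by 0.59 (adjusted p = 0.031). Left-out arrays took this count to 0 higher (without any one of the S5 untreated arrays, untreated WT replicate 2 or either treated WT array) or 1 (without untreated WT replicate 1). None passed in KO cells (2 at an unadjusted p below 0.05 in limma). In S5 cells Mgll rose by 1.12 (adjusted p = 0.00248) and the fatty acid elongase gene Elovl6 by 0.92 (adjusted p = 0.00475), while Slc27a1 (-0.53, adjusted p = 0.025), the desaturase gene Scd1 (-0.28, 0.0348) and Plin4, in the low mode, fell. Of these 3 falls, 0 or 1 passed when an S5 array was left out. Among all genes 0.308% passed in KO cells, and 3.63% rose and 4.25% fell in S5 cells. The list's median was -0.04 in WT, -0.02 in KO and -0.03 in S5 cells.

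Between genotypes 5 of these lipid genes were higher and 6 lower in KO than in WT cells, among them Elovl6 (-1.61, adjusted p = 6.56e-05) and Mgll (-1.48, 0.000119) lower and the fatty acid transporter gene Slc27a1 (1.40, 9.08e-05) higher. The counts were 3 and 4 without replicate 1 and 2 and 5 without replicate 2 of the untreated WT arrays, and 2 and 6 without replicate 1 of the untreated KO arrays. Mgll (1.48, adjusted p = 7.37e-05), the triglyceride lipase gene Pnpla2 (1.71, 0.00253) and Fabp5 (0.67, 0.00358), a second fatty acid carrier, were among 4 genes higher in S5 than in KO cells, beside 3 lower. Without an untreated KO or S5 array these counts were 3 or 4 higher and 0 or 1 lower. Among all genes 13.9% were higher and 13.3% lower in KO than in WT cells, and 15.5% higher and 11.9% lower in S5 than in KO cells. Fabp5 was lower in KO than in WT cells as Fabp4 was (log2 difference -0.91, adjusted p = 0.000954).

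Of 12 listed acute-phase and inflammatory genes with known C/EBP beta or delta binding, 11 were measured and 4 rose with GH in WT cells, with each array left out as well. Among all genes 3.06% rose there. The iron-binding Lcn2, the serum amyloid gene Saa3, the cytokine gene Il6 and the metalloreductase gene Steap4 rose at least 5.19-fold, at least 300-fold, at least 13-fold and at least 3.61-fold. Steap4 had the values 3.16 and 3.14 without and 6.09 and 5.61 with GH in WT cells (adjusted p = 0.000153). The median over the 11 genes was 0.37 in WT, -0.01 in KO and 0.02 in S5 cells. Among all genes 0.308% passed in KO cells and 3.63% rose in S5 cells. In KO cells 0 of the 11 passed (1 at an unadjusted p below 0.05 in limma, and 1 higher without replicate 1 of the treated KO arrays). In S5 cells Steap4 went from 2.80 and 2.82 to 5.52 and 5.45, at least 2.8-fold (adjusted p = 0.000248), and Csf3 was the other of 2 genes to pass, in the low mode, with 1 more gene lower without either treated KO array. Saa3, Lcn2 and Il6 stayed in the low mode on every S5 array. The responses of these 3 genes differed between S5 and WT cells (adjusted p = 9.88e-06, 2.1e-06 and 0.000272). The WT arrays carried the macrophage marker signal given above, whose part in the response of these genes was not tested. Saa3, Lcn2 and Il6 were placed on the list with their response in these data known. The count of 4, also with arrays left out, was thus largely fixed by that choice.

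The genes with the most similar profiles over the 12 arrays were found by the root mean square difference of log2 values centred on each gene's mean, among 10940 genes. For Cebpb these were Sdc4, a cell surface proteoglycan gene (0.27), Rin3 (0.28) and Mtmr14 (0.28), against an SD of 0.63 for Cebpb itself. For Cebpd they were Dtx3l (0.27), Zhx2 (0.27) and Rrp8 (0.28), with an SD of 0.70. Each had its highest group mean in treated WT cells, which a choice by profile makes likely. For Cebpg the nearest were Morc4 (0.17), Ddias (0.18) and Mastl (0.19), with an SD of 0.60, and for Pparg Trim62 (0.23), Pwwp3a (0.29) and Pde7a (0.29), with an SD of 0.73.

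The strongly changed genes had neighbours that shared the step between cells, as their choice by profile makes likely. For Cebpa these were Lratd2 (0.42), Cemip (0.43) and Plekhg1 (0.44), against an SD of 2.08, all lowest in treated S5 cells. For Fabp4 they were the platelet chemokine gene Ppbp (0.29), the T-box gene Tbx4 (0.31) and the skeletal actin gene Acta1 (0.66), against an SD of 3.01. Ppbp stood at 10.26 in WT, 4.21 in KO and 11.09 in S5 cells, and Tbx4 at 8.46, 2.51 and 9.59. For Lpl they were Foxf1 (0.36), Mcpt8 (0.42) and Tdrkh (0.45), against an SD of 2.90, with Foxf1 at 9.87, 8.63 and 2.86 in WT, KO and S5 cells. For Cd36 they were Lair1 (0.25), Cd72 (0.28) and Sla (0.41), 3 genes of blood cells, against an SD of 2.15. With 6 groups, a likeness of this kind rests on few independent points.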

How the data were processed

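RNA of 12 MEF samples was read on Affymetrix arrays, 2 in each of 6 groups. The authors deposited 1 value per probe set, read here as log2 from the range of 0.989 to 15.95, made with GCOS and RMA per the submitters' processing notes. Settings and log base are not given in the sources used here. RMA normalizes arrays to each other, so a shift of all RNA is not seen. Control probe sets (64) and those with several genes (932) or none (9160) were left out, which left 34945. For each of 18193 genes, 18031 of them matched in a RefSeq table, the probe set with the highest mean was kept. limma 3.58.1 in R 4.3.3 fitted 6 group means to all 12 arrays (6 residual and 1.2 prior degrees of freedom), with two-sided tests and Benjamini-Hochberg adjustment at 0.05. The script was tested on simulated data. A fold is a lower bound from 4 where both arrays of 1 group lay below 4, and none is given where both groups did. The text names the 8 genes, label checks and markers of cell types. Further named are up to 4 genes of each list with the smallest adjusted p in a comparison. So are 3 genes of similar profile for each of the 8. Members and lists were chosen with earlier results of these data known. Alternatives covered probe sets, normalization, centring, prior, weights, filter, samples in the fit, the replicate block and each array left out.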

Additional observations from a re-analysis of the deposited data

Results flagged for a closer look

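The response of Cebpd to growth hormone differed between genotypes by a test of the difference itself. The effect in WT minus that in KO cells was 1.71 on the log2 scale (limma adjusted p = 0.00165), and it ranged from 1.57 to 1.80 over 21 alternatives (adjusted p 0.000178 to 0.0154). The effect in S5 minus that in WT cells was -1.88 (limma adjusted p = 0.000671), with a range from -1.97 to -1.70 (adjusted p 8.72e-05 to 0.00475). Both treated WT arrays lay above both untreated ones, whereas both treated S5 arrays lay below both untreated S5 arrays. Both differences share the WT arrays.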

How the results depend on the processing

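No called difference of the 8 genes reversed. Of 96 differences, 15 changed sign under some alternative, with no call before or after the change of sign, such as the difference with GH in WT cells for Cd36 (-0.62 to 1.31) and GH in S5 cells for Lpl (-0.32 to 1.09). Of the alternatives other than left-out arrays, 828 kept the call, 5 lost it and 19 gained it. With an array left out these were 1120, 22 and 10. Cd36 has no value under the filter on a mean of at least 4. The calls that changed are given in the results above or, for the block, below. Over all genes, a fit of only the groups compared gave 266 genes with GH in WT (main 1092), 0 in KO (main 56, with 1407 at an unadjusted p below 0.05 in limma) and 532 in S5 cells (main 1433). It gave 116 for the WT minus KO difference in response (main 231), 114 for S5 minus KO (main 205) and 3494 between treated S5 and KO cells (main 5256). Array weights gave 10 with GH in KO and 2914 in S5 cells, and 125 and 827 (main 532) for the WT minus KO and S5 minus WT differences. The filter on a mean of at least 4 gave 129 for the WT minus KO difference. The causes were not tested, beyond the fewer arrays or genes in those fits. Leaving out 1 array gave 547 to 1143 genes with GH in WT, 20 to 140 in KO and 552 to 1536 in S5 cells. The differences in response gave 150 to 355 (WT minus KO), 155 to 263 (S5 minus KO) and 363 to 580 (S5 minus WT). Untreated genotypes gave 3518 to 5125 (KO and WT), 3661 to 5121 (S5 and KO) and 4780 to 6483 (S5 and WT), and treated ones 4183 to 5442, 4075 to 5312 and 5564 to 6853. Deviations of same-numbered arrays correlated between -0.36 and 0.20 over 15 pairs of groups and 10947 genes, with 1 pair over 0.1. Arrays were thus not treated as paired by number, though such correlations cannot exclude a pairing with a small shared effect. The -0.36 was between KO and treated KO cells, and a batch shared under other numbers was not tested. The replicate block gave 32 genes with GH in KO cells, and Cebpd passed with it for GH in S5 (adjusted p = 0.0171) and between KO and WT cells (0.00966). With 2 arrays a group and values below 4 near background, small differences and those of Cd36 are limited by signal.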
